A study of Mus musculus with 18 samples.

Results

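The genes described here are Trp53, which encodes the transcription factor p53, and 9 genes that p53 is known to activate: Mdm2, Ccng1, Trp53inp1, Sesn2, Btg2, Plk2, Plk3, Gdf15 and Phlda3. The p53 target Cdkn1a, which encodes p21, was kept out of the set and serves as a comparison. The 10 genes were taken by name from 55421 genes in the tables of mouse kidney RNA, and all 10 were among the 18754 genes with enough counts to be tested. The libraries are polyA RNA-seq of wild type C57BL/6 proximal tubules (C57BL/6J in the growth protocol) from female mice aged 6 weeks. Tubules were freed with collagenase, purified on Percoll, and sampled on the day of isolation (day 0) or after 1, 2, 4, 7 or 14 days on plastic, never passaged and with no treatment added. Each of the 6 days has 3 libraries, replicates A, B and C, which the labels call biological replicates without saying that they came from separate animals or cultures. A p-value here therefore speaks to how far these libraries spread, and that spread may be technical.

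p53 is a transcription factor that is held at a low level by the ubiquitin ligase MDM2 and accumulates when DNA is damaged or a cell is stressed. It binds a paired decamer motif near its target genes, which arrest the cell cycle, repair DNA, tune metabolism and survival signalling, or start cell death. MDM2 is itself a target, so the pathway contains a negative feedback loop. In the kidney, p53 and its targets are studied mostly after ischaemic or toxic injury to the proximal tubule. Much of p53 control acts on the protein, which was not measured here.

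Totals of estimated counts ran from 23799559 to 37579097 per library. The summed level of 10 proximal tubule markers (Slc34a1, Slc5a2, Lrp2, Cubn, Aqp1, Slc22a6, Slc22a8, Miox, Kap and Hnf4a) was between 24971 and 27282 counts-per-million (CPM) on day 0, in keeping with the labelled cell type, and between 16.1 and 39.3 CPM on day 7. All 10 were lower than on day 0 on each culture day. On day 0 the libraries also held 10 distal nephron markers at a summed 5691 to 7413 CPM, against 13.2 to 98.0 CPM on day 7. Over all libraries, 8 endothelial markers summed to at most 281 CPM and 8 macrophage and myeloid markers to at most 67.8 CPM. The sum of 8 fibroblast and pericyte markers reached at most 234 CPM, on day 14, but these markers were split. Relative to isolation, the collagen genes Col1a1, Col1a2 and Col3a1 were called higher by day 14 (log2 6.43, 3.04 and 3.00, edgeR). Pdgfrb, Pdgfra, Dcn and Rgs5 were called lower (log2 -1.61, -2.52, -4.97 and -6.30), and Acta2 was not called. Day 7 replicate C lay apart from the other 2 libraries of its day: the cell division genes Mki67 and Top2a stood at 70.3 and 150 CPM in it, against at most 12.9 and 28.2 CPM in A and B. The part of these markers, and of that library's state, in the results on p53 targets was not tested, and values without that library are given where it moved a call.

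A p53 response element near the transcription start was sought as a description, since several of these genes moved together. RefSeq promoters (GRCm38.p6, 250 bases before to 50 after the start) were available for 9 of the 10 genes, Trp53inp1 being the exception. Both strands were read for a pair of p53 decamers with 0 or 1 base between them, the C and G of each core intact and at most 3 other mismatches in 20 bases. Elements outside this window were not sought, so a gene without a match may hold an element elsewhere. Ccng1 and Trp53 held a match, as did the upstream start of Cdkn1a, while 2.82% of all 32851 promoters did. Counted by gene name, 3.27% of 27025 did. The element is shown in capitals with 20 bases on either side, read on the strand of the gene, and the letters alone say nothing of binding. Ccng1 had 1 mismatch at positions -195 to -176 from the start (chr11:40755442-40755501, minus strand), Trp53 had 3 mismatches at -75 to -56 (chr11:69580264-69580323, plus strand) and Cdkn1a had 1 mismatch at -51 to -32 (chr17:29090908-29090967, plus strand).
Ccng1: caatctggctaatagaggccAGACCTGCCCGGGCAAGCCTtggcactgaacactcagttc
Trp53: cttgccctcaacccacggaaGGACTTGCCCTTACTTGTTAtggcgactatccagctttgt
Cdkn1a: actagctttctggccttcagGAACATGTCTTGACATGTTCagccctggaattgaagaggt

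The 10 genes followed several courses. Trp53, Mdm2, Trp53inp1, Plk2, Gdf15 and Phlda3 were higher than on day 0 on each culture day, and on day 14 Gdf15, Plk2 and Phlda3 had the largest folds of the set (107, 53.2 and 32.6). Mdm2, Ccng1, Trp53inp1, Sesn2, Btg2 and Phlda3 fell between days 2 and 4, and Plk3 was highest on day 1. Calls rest on edgeR's quasi-likelihood test, with p adjusted by Benjamini and Hochberg (BH) over all genes tested and a threshold of 0.05. By the test of any difference among the 6 days all 10 were called, against 89.8% of all genes. That background is high, so a call alone sets none of these genes apart.

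Against day 0, 8 of the 10 were higher and 0 lower on day 1, when 33.1% of all tested genes were higher and 37.1% lower. On day 2 it was 9 higher and 1 lower (all genes 38.9% and 35.3%), and on day 4 it was 8 higher and 2 lower (38.1% and 36.8%). Day 7 had 8 higher and 0 lower (37.6% and 32.1%), and day 14 had all 10 higher (37.4% of all genes, with 32.1% lower). The median log2 fold change of the 10 was 2.14, 1.98, 1.06, 1.47 and 1.56 on days 1, 2, 4, 7 and 14, while that of all genes lay between -0.01 and 0.16. These 5 comparisons share the day 0 libraries. On log2(TPM + 1) in limma the median of all genes against day 0 was 0.25 to 0.61 higher, and some fold changes of the set moved up by over 1.5 times. On day 14 that fit gave log2 2.99 for Trp53, 2.13 for Mdm2, 1.59 for Ccng1, 2.38 for Trp53inp1, 1.62 for Sesn2, 1.73 for Btg2, 1.68 for Plk3 and 7.35 for Gdf15, all called higher. It also gave 2.98 for Mdm2 on day 2, 1.00 for Ccng1 and 1.39 for Plk3 on day 4, and 2.95 for Trp53, 1.61 for Ccng1 and 1.21 for Btg2 on day 7.

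Between consecutive sampled days the counts were smaller. From day 1 to day 2, 5 of the 10 rose and 1 fell (17% and 17.5% of all genes), and from day 2 to day 4 3 rose and 6 fell (19.4% and 22.1%). From day 4 to day 7, 5 rose and 2 fell (22% and 15.9%), so 7 changed, against 4 without day 7 replicate B. From day 7 to day 14, 1 rose and 0 fell (5.07% and 7.46%), a count that ran from 0 to 2 as single libraries were left out, 0 without any one of the 3 day 14 libraries. The map of fold changes sets all comparisons side by side.

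**Figure D1:**
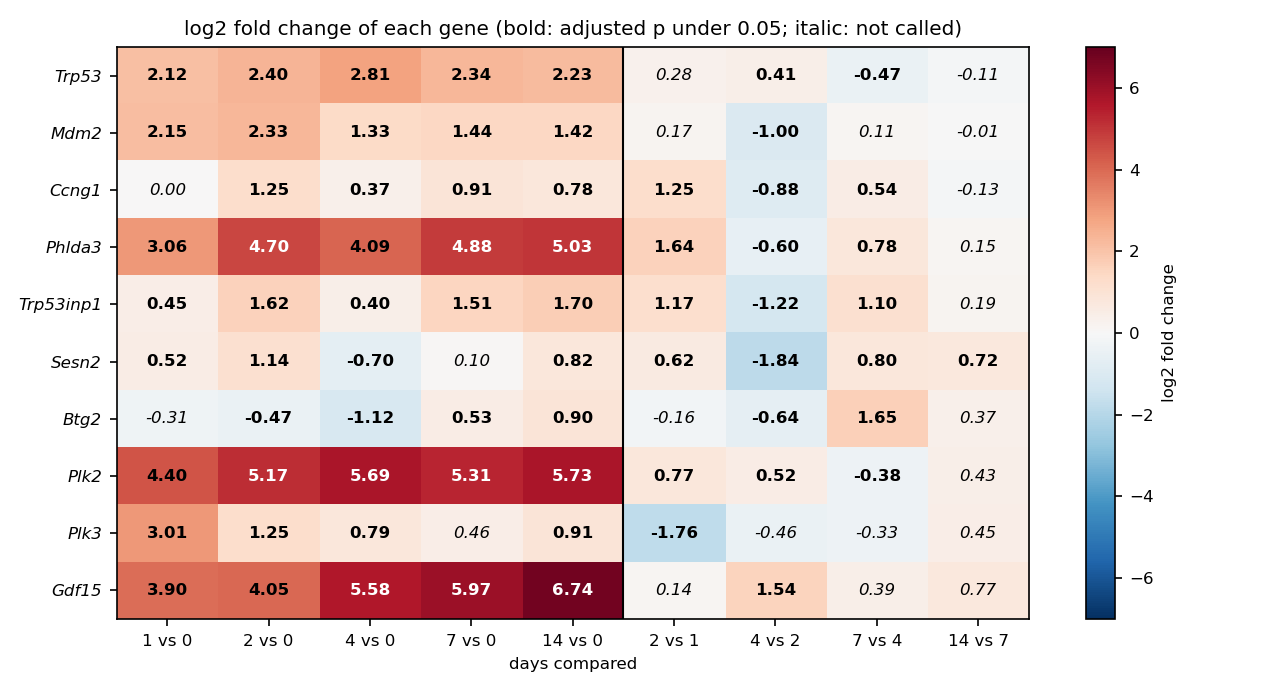
Log2 fold change of each gene (rows) in each comparison of days (columns), with 5 comparisons against day 0 left of the line and 4 between consecutive days right of it. Bold values had an adjusted p under 0.05 and italic values did not; the column of day 4 against day 2 holds 6 bold negative values and 3 bold positive ones.

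Trp53 (ENSMUSG00000059552) lies on chromosome 11 at 69580359 to 69591873 on the plus strand of GRCm38. It had 26.2, 24.3 and 27.9 CPM in replicates A, B and C of day 0, 111, 105 and 124 CPM on day 1, 128, 139 and 148 CPM on day 2, and 178, 199 and 173 CPM on day 4. On day 7 it stood at 112, 114 and 172 CPM, and on day 14 at 120, 126 and 123 CPM. The day 0 libraries were the lowest and overlapped no other day, and day 4 was the highest. The transcript was 4.35-fold higher on day 1 (log2 2.12 ± 0.14 SE, adjusted p = 1.89e-09, edgeR, BH) and 7.03-fold higher on day 4 (log2 2.81 ± 0.14). In these bulk samples a change in how many cells express a gene and a change in RNA per cell cannot be told apart.

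From day 2 to day 4 Trp53 rose by a further 0.41 ± 0.13 on the log2 scale (adjusted p = 0.0207, edgeR, BH), and from day 4 to day 7 it fell by 0.47 ± 0.13 (adjusted p = 0.0108). The rise was not called without day 4 replicate B (0.35, adjusted p = 0.0818). The fall was not called without day 7 replicate A (-0.36, adjusted p = 0.0649), day 7 replicate B (-0.37, 0.0599) or day 4 replicate B (-0.41, 0.0505). Day 7 replicate C, with 172 CPM, was nearer to the day 4 mean of 183 CPM than A and B were. The step from day 1 to day 2 had 0.28 ± 0.13 (adjusted p = 0.108), and 0.28 with adjusted p = 0.00609 without that library.

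**Figure D2:**
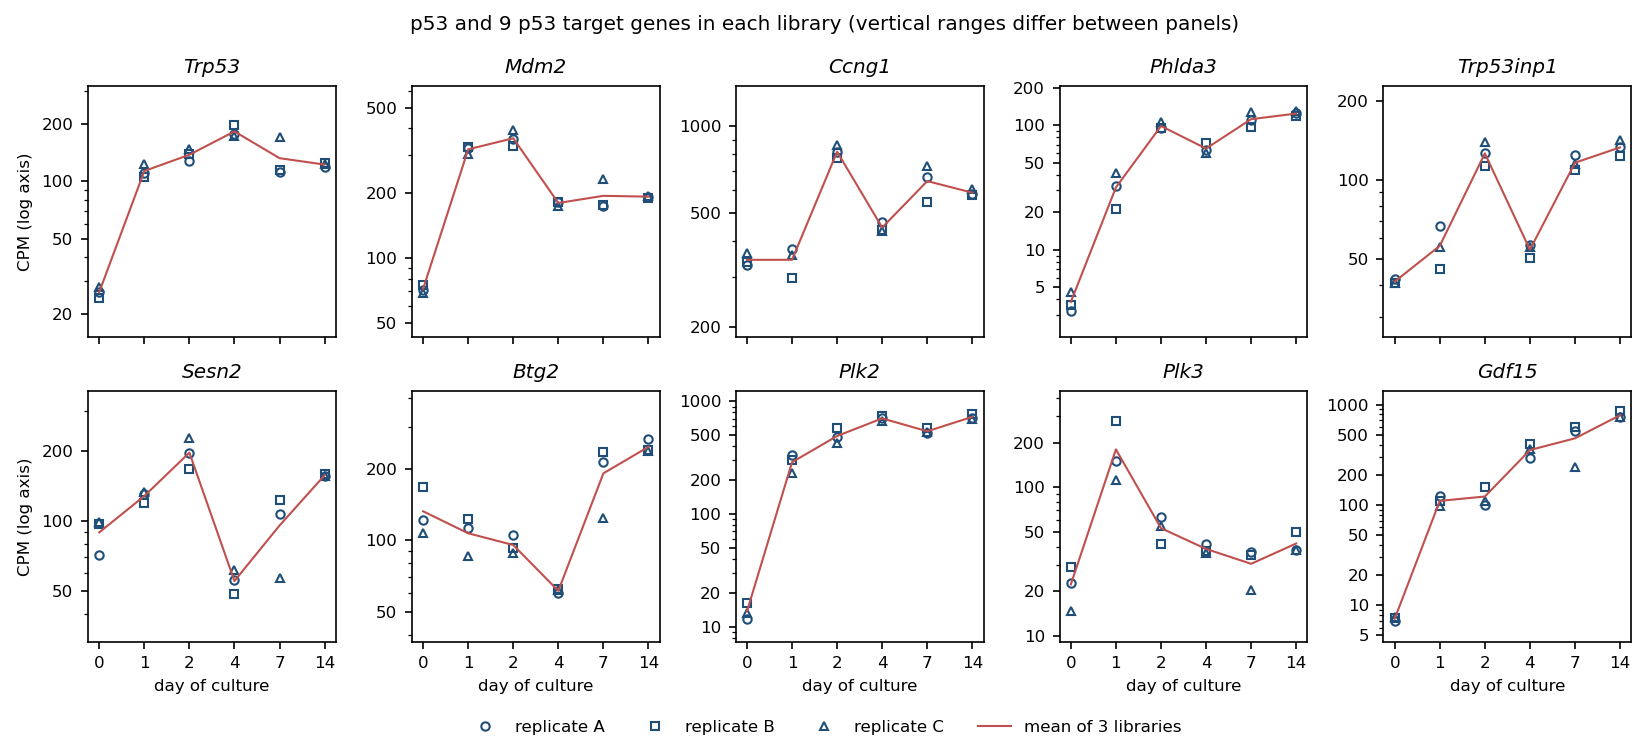
CPM (log axis, range set per panel) of Trp53 and 9 p53 targets on each day of culture; each symbol is 1 library (circle A, square B, triangle C) and the line joins the means of 3 libraries. Plk2, Gdf15 and Phlda3 start at 3.22 to 16.1 CPM on day 0, and day 7 replicate C departs from A and B for Trp53, Mdm2, Sesn2, Btg2, Plk3 and Gdf15.

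Mdm2 (ENSMUSG00000020184, chromosome 10, 117688875 to 117710758, minus strand) encodes the ligase that marks p53 for destruction. It had 71.2, 75.3 and 68.9 CPM on day 0, 326, 328 and 305 CPM on day 1, 357, 330 and 394 CPM on day 2, and 182, 183 and 175 CPM on day 4. On day 7 it had 174, 177 and 233 CPM and on day 14 193, 190 and 195 CPM. Every culture library lay above every day 0 library, and days 1 and 2 lay above all later ones. Mdm2 was 4.45-fold higher on day 1 (log2 2.15 ± 0.10, adjusted p = 5.03e-11, edgeR, BH) and 2.68-fold higher on day 14 (log2 1.42 ± 0.10). Between days 2 and 4 it fell by 1.00 ± 0.10 on the log2 scale (adjusted p = 1.38e-06, edgeR, BH), over the step in which Trp53 rose. The next steps were not called, at 0.11 ± 0.10 to day 7 (adjusted p = 0.396) and -0.01 ± 0.10 to day 14 (adjusted p = 0.966). From day 1 to day 2 it differed by 0.17 ± 0.10 (adjusted p = 0.187), which became a call without day 7 replicate C (0.17, adjusted p = 0.038).

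Among the genes that act on cell cycle progress, Ccng1 (ENSMUSG00000020326, chromosome 11, 40748552 to 40755311, minus strand) encodes cyclin G1, which brings a phosphatase to MDM2. It had 330, 339 and 362 CPM on day 0 and 376, 297 and 358 CPM on day 1, so that these days overlapped. On day 2 it had 812, 774 and 863 CPM, on day 4 466, 435 and 434 CPM, on day 7 665, 545 and 725 CPM, and on day 14 582, 578 and 604 CPM. Day 2 was the highest and overlapped no other day. Ccng1 was 2.38-fold higher on day 2 than on day 0 (log2 1.25 ± 0.10, adjusted p = 2.24e-08, edgeR, BH), fell by 0.88 ± 0.10 to day 4 (adjusted p = 8.79e-06) and rose by 0.54 ± 0.10 to day 7 (adjusted p = 0.000964). Its day 1 value, 0.00 ± 0.10 against day 0, takes its direction from the scaling: with library sizes alone it was 0.31 (adjusted p = 0.0324), and on log2(TPM + 1) in limma 0.35 (adjusted p = 0.0114), where TPM stands for transcripts-per-million.

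Btg2 (ENSMUSG00000020423, chromosome 1, 134075170 to 134079120, minus strand), an antiproliferative gene whose product promotes mRNA decay, had its lowest level on day 4. Day 0 held 122, 168 and 108 CPM, followed by 113, 123 and 85.6 CPM on day 1, 105, 92.6 and 88.6 CPM on day 2, and 59.7, 62.3 and 61.5 CPM on day 4. Day 7 gave 215, 236 and 124 CPM and on day 14 267, 240 and 237 CPM. Day 4 was the lowest, day 14 the highest, and neither overlapped another day. Against day 0 it was 2.17-fold lower on day 4 (log2 -1.12 ± 0.20, adjusted p = 0.000123, edgeR, BH) and 1.87-fold higher on day 14 (log2 0.90 ± 0.20, adjusted p = 0.000872). From day 4 to day 7 it rose by 1.65 ± 0.21 (adjusted p = 4.43e-05, edgeR, BH), the largest rise of the 10 genes over that step.

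Other fits and libraries moved the Btg2 calls. On log2(TPM + 1) in limma its day 4 value was -0.44 (adjusted p = 0.0495, and 0.0841 without a filter). Its day 2 value of -0.47 ± 0.20 (adjusted p = 0.0443, edgeR, BH) turned to 0.04 with library sizes alone and 0.13 on log2(TPM + 1) in limma, and was not called without any one library of days 2, 4 and 14, without day 0 replicate A or B, or without day 1 replicate A (adjusted p = 0.0508 to 0.26, the last at -0.27 without day 0 replicate B). Its day 7 value of 0.53 ± 0.20 (adjusted p = 0.0274) was not called without day 0 replicate A (0.48, adjusted p = 0.0873), day 0 replicate C (0.40, 0.125), day 7 replicate A (0.45, 0.0914) or day 7 replicate B (0.36, 0.144). The fall from day 2 to day 4 (-0.64 ± 0.20, adjusted p = 0.0184) was not called without day 2 replicate A (-0.48, 0.11) or day 4 replicate A (-0.62, 0.0556).

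Plk2 and Plk3 encode polo-like kinases that respond to stress, unlike the mitotic kinase of the family, and both are also known as early growth response genes. Plk2 (ENSMUSG00000021701, chromosome 13, 110395046 to 110400844, plus strand) had 11.8, 16.1 and 13.1 CPM on day 0, 332, 300 and 233 CPM on day 1, and 479, 574 and 423 CPM on day 2. It had 711, 743 and 663 CPM on day 4, 519, 578 and 530 CPM on day 7 and 709, 773 and 702 CPM on day 14. No culture library came near the day 0 range, and days 4 and 14 were the highest and overlapped each other. Plk2 was 21.1-fold higher on day 1 (log2 4.40 ± 0.16, adjusted p = 2.96e-12, edgeR, BH) and 53.2-fold higher on day 14 (log2 5.73 ± 0.17). It rose from day 1 to day 2 by 0.77 ± 0.14 and from day 2 to day 4 by 0.52 ± 0.14 (adjusted p = 0.000431 and 0.00601, edgeR, BH). The later steps were near the threshold. The fall of 0.38 ± 0.14 to day 7 (adjusted p = 0.0371) passed the threshold with all libraries but not without any one of the 6 libraries of those days (adjusted p = 0.0517 to 0.118), and the day 14 step of 0.43 ± 0.14 (adjusted p = 0.0516) passed it without day 0 replicate B, day 2 replicate B or day 1 replicate C (adjusted p = 0.0312 to 0.0436).

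Plk3 (ENSMUSG00000028680, chromosome 4, 117128655 to 117133963, minus strand) had 22.7, 29.3 and 14.7 CPM on day 0 and 150, 278 and 112 CPM on day 1. It had 62.9, 41.6 and 54.9 CPM on day 2, 41.9, 37.3 and 36.4 CPM on day 4, 36.6, 34.8 and 20.3 CPM on day 7, and 38.0, 50.02 and 37.7 CPM on day 14. Day 1 stood above every other library, replicate B being the highest, and days 0 and 7 overlapped. Plk3 was 8.06-fold higher on day 1 than on day 0 (log2 3.01 ± 0.33, adjusted p = 6.69e-07, edgeR, BH) and fell by 1.76 ± 0.31 to day 2 (adjusted p = 0.000453). From day 2 on no consecutive step was called. Its excess over day 0 on day 4 (0.79 ± 0.31, adjusted p = 0.0322) was not called without day 0 replicate A (adjusted p = 0.0656), day 0 replicate C (0.143), day 4 replicate A (0.0789) or day 4 replicate B (0.0521), and that on day 14 (0.91 ± 0.31, adjusted p = 0.0171) was not called without day 0 replicate C (0.68, adjusted p = 0.0858). The neighbour Tctex1d4 on the opposite strand shares 84 exonic bases with Plk3, but its counts came to 0.136% of those of Plk3.

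Of the genes that act on growth and survival signalling, Sesn2 (ENSMUSG00000028893, chromosome 4, 132492032 to 132510501, minus strand) encodes sestrin 2, which restrains mTORC1 when leucine is scarce. It had 71.5, 97.7 and 99.2 CPM on day 0, 131, 120 and 134 CPM on day 1, 197, 168 and 228 CPM on day 2, and 55.8, 48.4 and 61.4 CPM on day 4. Day 7 brought 107, 123 and 57.1 CPM, and on day 14 157, 159 and 157 CPM. Day 2 was the highest and day 4 the lowest mean, with day 7 replicate C inside the day 4 range and A and B above it. Sesn2 fell 3.58-fold from day 2 to day 4 (log2 -1.84 ± 0.21, adjusted p = 7.27e-06, edgeR, BH), the largest fall of the 10 genes over that step. Against day 0 it was 2.21-fold higher on day 2 (log2 1.14 ± 0.21, adjusted p = 0.000132) and 1.76-fold higher on day 14 (log2 0.82 ± 0.21, adjusted p = 0.0024).

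Smaller Sesn2 differences leaned on scaling or single libraries. The day 1 value (0.52 ± 0.21, adjusted p = 0.0349, edgeR, BH) was not called without day 0 replicate A (0.38, 0.15), day 1 replicate A (0.51, 0.0740) or day 1 replicate C (0.49, 0.0798). On day 4 it was lower than on day 0 (-0.70 ± 0.21, adjusted p = 0.00672) but not by library sizes alone (-0.20, adjusted p = 0.38) or on log2(TPM + 1) in limma (-0.05, adjusted p = 0.832). Day 7 had 0.10 ± 0.21 against day 0 (adjusted p = 0.689), and 0.37 (adjusted p = 0.0273) without day 7 replicate C. It rose from day 1 to day 2 by 0.62 ± 0.21 (adjusted p = 0.0292), from day 4 to day 7 by 0.80 ± 0.21 (adjusted p = 0.00733) and from day 7 to day 14 by 0.72 ± 0.21 (adjusted p = 0.0334), the single call of the set in that last step. The rise to day 2 was lost without any one library of those days but day 2 replicate B (adjusted p = 0.0505 to 0.117), the rise to day 7 without day 7 replicate B (0.57, 0.0509), and the rise to day 14 without any one day 14 library (adjusted p = 0.0821 to 0.0868).

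Trp53inp1 (ENSMUSG00000028211, chromosome 4, 11156431 to 11174379, plus strand) encodes a nuclear protein that promotes p53 activity and autophagy. It had 42.1, 40.5 and 40.6 CPM on day 0, 67.0, 45.9 and 55.6 CPM on day 1, 127, 113 and 140 CPM on day 2, and 56.6, 50.4 and 55.8 CPM on day 4. On day 7 there were 125, 109 and 115 CPM, replicate C between A and B, and on day 14 134, 123 and 143 CPM. Days 2, 7 and 14 formed a high range, days 1 and 4 an intermediate one, and day 0 lay below all. Up to day 7 its steps after day 1 alternated and were called: up by 1.17 ± 0.12 from day 1 to day 2 (adjusted p = 3.37e-06, edgeR, BH), down by 1.22 ± 0.12 to day 4 (log2, adjusted p = 1.03e-06), and up by 1.10 ± 0.12 to day 7 (adjusted p = 1.25e-05). The step from day 7 to day 14, at 0.19 ± 0.11, was not called (adjusted p = 0.301). Against day 0 it was 1.37-fold higher on day 1 (log2 0.45 ± 0.12, adjusted p = 0.00244) and 3.25-fold higher on day 14 (log2 1.70 ± 0.12).

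Phlda3 (ENSMUSG00000041801, chromosome 1, 135766119 to 135769136, plus strand) encodes a small pleckstrin homology protein that competes with AKT for membrane lipids. It had 3.22, 3.64 and 4.62 CPM on day 0, 32.6, 21.1 and 41.5 CPM on day 1, 95.5, 94.7 and 106 CPM on day 2, and 63.4, 71.8 and 60.1 CPM on day 4. Day 7 showed 111, 96.2 and 129 CPM, and on day 14 126, 118 and 129 CPM. Day 0 rested on 68, 101 and 90 counts, and no culture library overlapped it. Phlda3 was 8.33-fold higher on day 1 (log2 3.06 ± 0.21, adjusted p = 3.00e-09, edgeR, BH), 25.9-fold on day 2 (log2 4.70 ± 0.22) and 32.6-fold on day 14 (log2 5.03 ± 0.22). It rose from day 1 to day 2 by 1.64 ± 0.18 (adjusted p = 9.22e-06) and from day 4 to day 7 by 0.78 ± 0.18 (adjusted p = 0.00302). The fall from day 2 to day 4 (-0.60 ± 0.18, adjusted p = 0.013) was not called without day 2 replicate A (-0.54, adjusted p = 0.0663) or day 4 replicate C (-0.55, adjusted p = 0.0533).

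Gdf15 (ENSMUSG00000038508, chromosome 8, 70629393 to 70632456, minus strand) encodes a secreted TGF-beta family hormone that is released by stressed cells and curbs appetite through a brainstem receptor. It had 6.95, 7.45 and 7.64 CPM on day 0, 123, 110 and 97.1 CPM on day 1, 101, 153 and 111 CPM on day 2, and 294, 403 and 361 CPM on day 4. By day 7 it had 543, 603 and 240 CPM, and on day 14 751, 857 and 748 CPM. Day 14 lay above all other libraries, and day 7 was split, with replicate C below every day 4 library. Gdf15 was 14.9-fold higher on day 1 (log2 3.90 ± 0.29, adjusted p = 6.73e-09, edgeR, BH) and 107-fold higher on day 14 (log2 6.74 ± 0.32), the largest fold of the set on that day. It rose by 1.54 ± 0.25 from day 2 to day 4 (adjusted p = 0.0001635, edgeR, BH). The day 7 step of 0.39 ± 0.25 (adjusted p = 0.23) became 0.70 (adjusted p = 0.00117) without day 7 replicate C, and the day 14 step of 0.77 ± 0.25 (adjusted p = 0.0536) became 1.00 (adjusted p = 0.0189) without day 7 replicate B.

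In TPM, which is scaled by transcript length and so allows levels of different genes to be compared, the summed level of the 10 genes was 250 ± 12.8, 888 ± 50.8, 1460 ± 64.1, 1526 ± 60.3, 1890 ± 196 and 2704 ± 60.3 over days 0, 1, 2, 4, 7 and 14 (SD, n = 3). The gene that led the set changed. Ccng1 was the most abundant on days 0 and 2, at 98.6 and 351 TPM, Mdm2 on day 1 at 167 TPM, and Gdf15 from day 4 on, at 458, 632 and 1163 TPM. The share of Gdf15 in the sum was 2.45 ± 0.121% on day 0 and 43.0 ± 1.68% on day 14 (SD, n = 3). Phlda3 was the lowest of the 10 on day 0 at 3.05 TPM and the fourth on day 14 at 177 TPM.

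The step from day 2 to day 4 divided the set. Mdm2, Ccng1, Trp53inp1, Sesn2, Btg2 and Phlda3 fell, Trp53, Plk2 and Gdf15 rose, and Plk3 differed by -0.46 ± 0.31 (adjusted p = 0.249, edgeR, BH). Cdkn1a fell 5.05-fold over the same step, from 996, 855 and 1093 CPM to 190, 181 and 213 CPM (log2 -2.34 ± 0.22, adjusted p = 1.02e-06). Day 4 was also the day on which the cell division genes were highest: Mki67 went from 48.2 ± 20.2 CPM on day 2 to 118 ± 15.2 CPM on day 4 (SD, n = 3). Of 16 such genes 12 rose and 0 fell over that step, or all 16 rose without day 7 replicate C. Of all genes 19.4% rose and 22.1% fell. From day 4 to day 7 all 16 fell, while Ccng1, Trp53inp1, Sesn2, Btg2 and Phlda3 rose (22% of all genes rose and 15.9% fell). In a fit of only the day 4 and day 7 libraries, 1 of the 16 was called lower. The share of counts from mitochondrial genes was also lowest on day 4, at 0.439% to 0.498% per library, against 1.56% to 1.90% on day 2 and 0.711% to 0.939% on day 7. Both steps share the day 4 libraries, and the part of cell division or of the mitochondrial share in the dip was not tested.

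**Figure D3:**
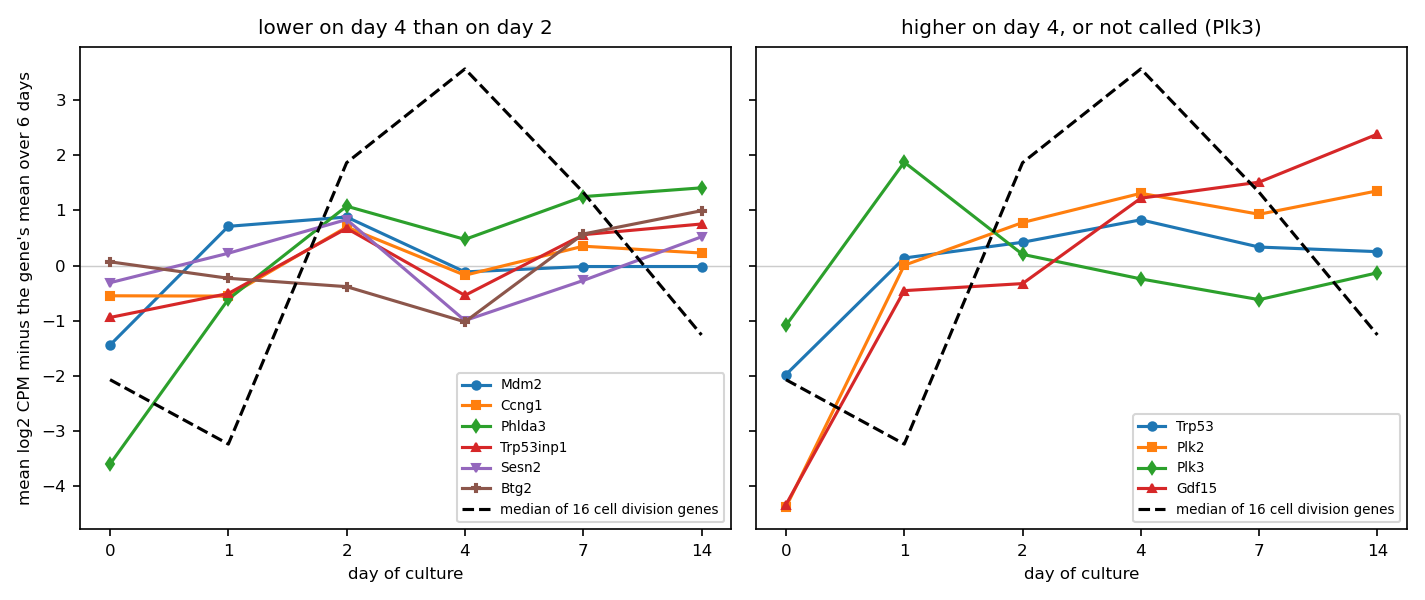
Mean log2 CPM of each gene on each day, less the gene's own mean over the 6 days, with the median of 16 cell division genes as a dashed line. The 6 genes that fell from day 2 to day 4 are on the left; on the right are Trp53, Plk2 and Gdf15, which rose, and Plk3, which was highest on day 1.

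Profiles were compared by the root mean square (RMS) difference of these centred values over the 6 days. Of all pairs in the set the nearest was Ccng1 with Trp53inp1, at 0.32, and the farthest Sesn2 with Gdf15, at 2.22. Plk2 and Phlda3 were 0.56 apart, Trp53 and Mdm2 0.566, and Plk2 and Plk3, members of 1 kinase family, 1.903. The search for near profiles left out genes with no name, or with a name of Gm and a number or ending in Rik. Of the 9697 kept, with a mean of at least 10 CPM, the one nearest to Mdm2 was Btg3 (0.0964), a relative of Btg2. Next were Rela (0.119), the NF-kB subunit gene, and Btbd10 (0.140). Nearest to Trp53 were Phc2 (0.127), Klf16 (0.144) and Dusp7 (0.145). Phlda3 had Ndn (0.293), the death receptor gene Tnfrsf10b (0.321) and Flna (0.336), Ccng1 had Arid1a (0.219), F11r (0.225) and Cd82 (0.237), and Trp53inp1 had Plekhh2 (0.289), Polk (0.294) and Mfge8 (0.294). For Gdf15 the nearest, Tnc, Emp2 and Map1b, were farther off (from 0.438 for Tnc). Sesn2 had Pdrg1 (0.287), Epg5 (0.305) and Atf6 (0.305), and Btg2 had Plpp3 (0.203), Fam43a (0.214) and Rab20 (0.217). Plk2 was nearest to Samd5 (0.281), Epop (0.282) and Sox9 (0.292), and Plk3 to Trmt10c (0.261), Ccdc71l (0.283) and Taf1a (0.290). These distances rest on 6 day means from shared libraries and are descriptions.

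Most of a list of 30 further p53 targets were called higher against day 0: 19, 21, 20, 22 and 22 of the 30 were higher on days 1, 2, 4, 7 and 14, and 8, 6, 6, 5 and 3 were lower. Of all genes 33.1% to 38.9% were higher and 32.1% to 37.1% lower on those days. The median log2 fold change was 1.17, 1.74, 1.44, 1.59 and 1.76. Among the largest rises was that of Eda2r, which encodes a receptor for ectodysplasin A2, from 0.594 ± 0.349 to 74.8 ± 10.5 CPM on day 2 (log2 7.04 ± 0.35, SE). It began near 0 and its fold is imprecise, with 38 counts in all on day 0. Psrc1 and Gtse1, which encode proteins of the mitotic spindle and microtubules, were also among them, Psrc1 with a log2 fold change of 6.20 ± 0.30 on day 14 and Gtse1 with 6.11 ± 0.36 on day 4.

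Not all p53 targets rose. Fas, the death receptor gene, fell from 10.2 ± 1.26 CPM on day 0 to 5.45 ± 2.81 on day 1 and 1.19 ± 0.134 CPM on day 14 (log2 -3.09 ± 0.34), and Sesn1, the sestrin gene related to Sesn2, fell from 30.4 ± 3.18 to 5.29 ± 0.837 CPM on day 1 (log2 -2.52 ± 0.17, SE). Of 2 genes of nucleotide excision repair, Ddb2 was lower on day 1 (log2 -1.38 ± 0.17) and Xpc on day 4 (log2 -1.30 ± 0.15). Neither was lower on day 14, when the 3 lower genes of the list were Fas, Sesn1 and Ei24 (log2 -0.58 ± 0.06 for Ei24). Bax, Pmaip1 and Bbc3, which encode proteins of mitochondrial cell death and were picked from the list after their values were seen, were each higher on each culture day. Bax went from 44.8 ± 3.50 on day 0 to 218 ± 12.6 CPM on day 14, Pmaip1 49.0 ± 8.75 and 269 ± 10.9 CPM, and Bbc3 2.502 ± 0.589 and 37.9 ± 2.12 CPM (SD, n = 3).

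In the step from day 2 to day 4, 8 of the 30 further targets rose and 11 fell (19.4% and 22.1% of all genes), and the median of the list was -0.21 (log2). Eda2r fell 5.40-fold (log2 -2.43 ± 0.26, adjusted p = 2.76e-06, edgeR, BH) and Pmaip1 2.33-fold (log2 -1.22 ± 0.12, adjusted p = 1.91e-06), while Bax differed by 0.16 ± 0.12 (adjusted p = 0.306). From day 1 to day 2, 18 rose and 3 fell (all genes 17% and 17.5%), and from day 7 to day 14, 3 rose and 2 fell (5.07% and 7.46%). From day 4 to day 7, 13 rose and 5 fell (22% and 15.9%), with 15 and 9 without day 7 replicate C. The count of 5 that fell was 3 when day 7 replicate A was left out, and 2 when replicate B of day 4 or of day 7 was. With only the libraries of those days 8 rose and 2 fell.

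**Figure D4:**
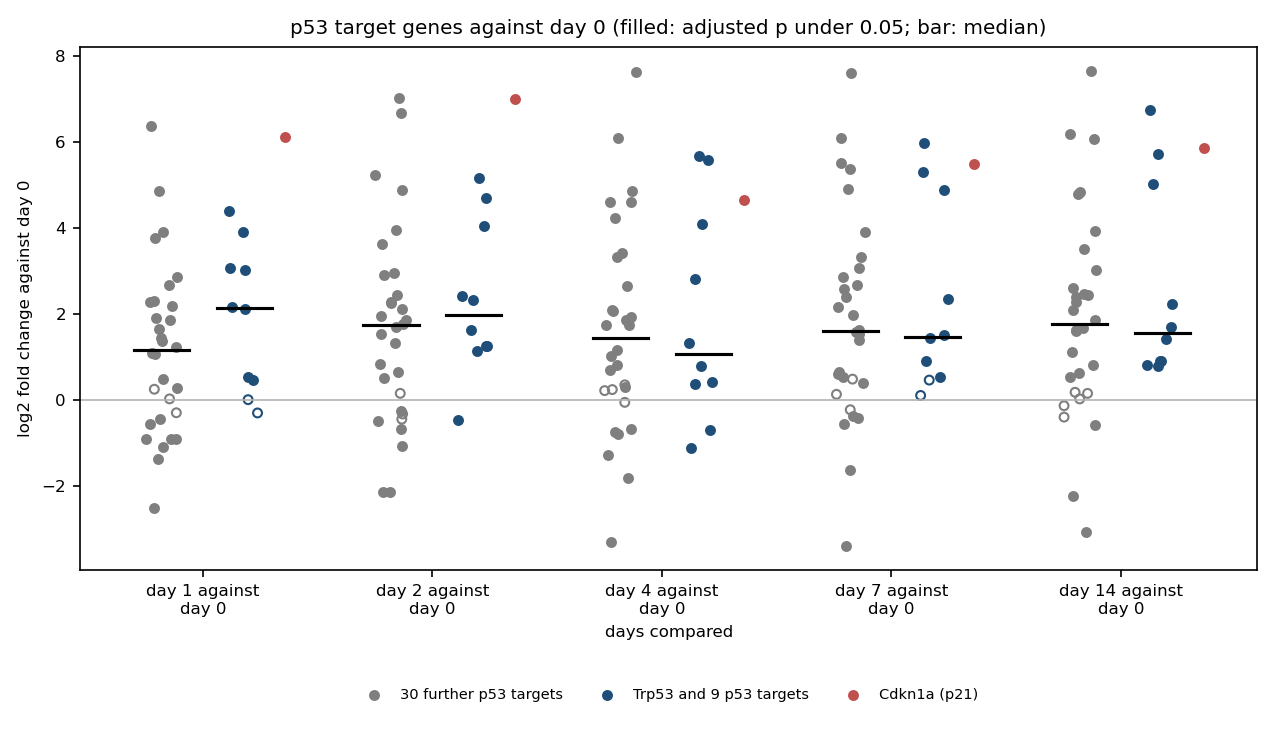
Log2 fold change against day 0 on each culture day for 30 further p53 targets (grey), Trp53 and 9 targets (blue) and Cdkn1a (red); filled points had an adjusted p under 0.05, open points did not, and bars are medians. The medians lie between 1.06 and 2.14 for Trp53 and 9 targets and between 1.17 and 1.76 for the further targets.

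Cdkn1a itself had its largest log2 fold change against day 0 on day 2, at 6.99 ± 0.28. Plk2, with the largest of the set that day, had 5.17 ± 0.16. On day 1 Cdkn1a had 6.12 ± 0.27, next to 4.40 ± 0.16 for Plk2. On day 4 it had 4.66 ± 0.25, below Plk2 at 5.69 ± 0.17 and Gdf15 at 5.58 ± 0.31. On day 14 it had 5.86 ± 0.27, next to 5.73 ± 0.17 for Plk2 and 6.74 ± 0.32 for Gdf15. These genes were not tested against each other. Cdkn1a had 9.98, 4.32 and 9.03 CPM on day 0 and 556, 469 and 587 CPM on day 1.

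Of 17 genes that control p53 or belong to its family, 16 were tested (Trp73 was not). Against day 0, 5, 9, 8, 9 and 11 were higher on days 1, 2, 4, 7 and 14, next to 33.1%, 38.9%, 38.1%, 37.6% and 37.4% of all genes. On each of those days 2 were lower, next to 37.1%, 35.3%, 36.8%, 32.1% and 32.1% of all genes. The day 1 count of 5 was 10 with library sizes alone and 8 with only the libraries of days 0 and 1. Mdm4, the partner of Mdm2 that masks the activation domain of p53, ranged between 33.6 ± 4.83 CPM on day 0 and 48.1 ± 3.40 CPM on day 4 (log2 0.51 ± 0.10, adjusted p = 0.000207, edgeR, BH). Chek1, the checkpoint kinase gene that follows DNA replication, had 0.841 ± 0.117 CPM on day 0, 30.8 ± 1.04 on day 4 and 2.14 ± 0.312 CPM on day 14. Trp53bp1, which encodes a DNA break factor, climbed from 19.0 ± 0.710 to 80.4 ± 6.72 CPM on day 14 (log2 2.08 ± 0.11). Cdkn2a, whose ARF product inhibits MDM2, had 0 counts in all libraries of days 0, 1 and 2 and reached 1.10 ± 0.411 CPM on day 14, so no fold is given. Rchy1, a ligase gene like Mdm2, was lower on day 4 (log2 -1.15 ± 0.13).

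Several paralogs took another course than the gene they resemble. Sesn2 rose to day 2, fell to day 4 and was again higher than on day 0 on day 14. Sesn1 was lower than on day 0 on each culture day, and Sesn3 was between 15.8 ± 1.51 and 32.7 ± 2.19 CPM throughout. Trp53inp2 went from 348 ± 12.6 on day 0 to 90.1 ± 9.52 CPM on day 1 (log2 -1.95 ± 0.17, adjusted p = 3.51e-08, edgeR, BH), the opposite direction to Trp53inp1. Ccng2 was not called on days 1, 2 and 4 and was higher on day 7, at 149 ± 49.5 CPM against 46.9 ± 3.26 CPM on day 0 (log2 1.67 ± 0.18). Of the kin of Btg2, Btg1 and Btg3 were higher on each culture day and Tob1 and Tob2 lower. Plk1, the mitotic kinase gene, and Plk4, the centriole kinase gene, were highest on day 4 at 145 ± 6.08 and 64.5 ± 2.47 CPM and had 3.30 ± 0.330 and 6.71 ± 0.249 CPM on day 14. Phlda1 had 188 ± 23.6 CPM on day 1 and stood at 40.9 ± 9.47 CPM on day 14, while Phlda2 was lower than on day 0 from day 4 on (1.76 ± 0.391 CPM on day 14). Trp63, with at most 1.57 CPM as a day mean, and Trp73, with at most 0.24 CPM, were scarcely present. Differences between a gene and its paralog were not tested.

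**Figure D5:**
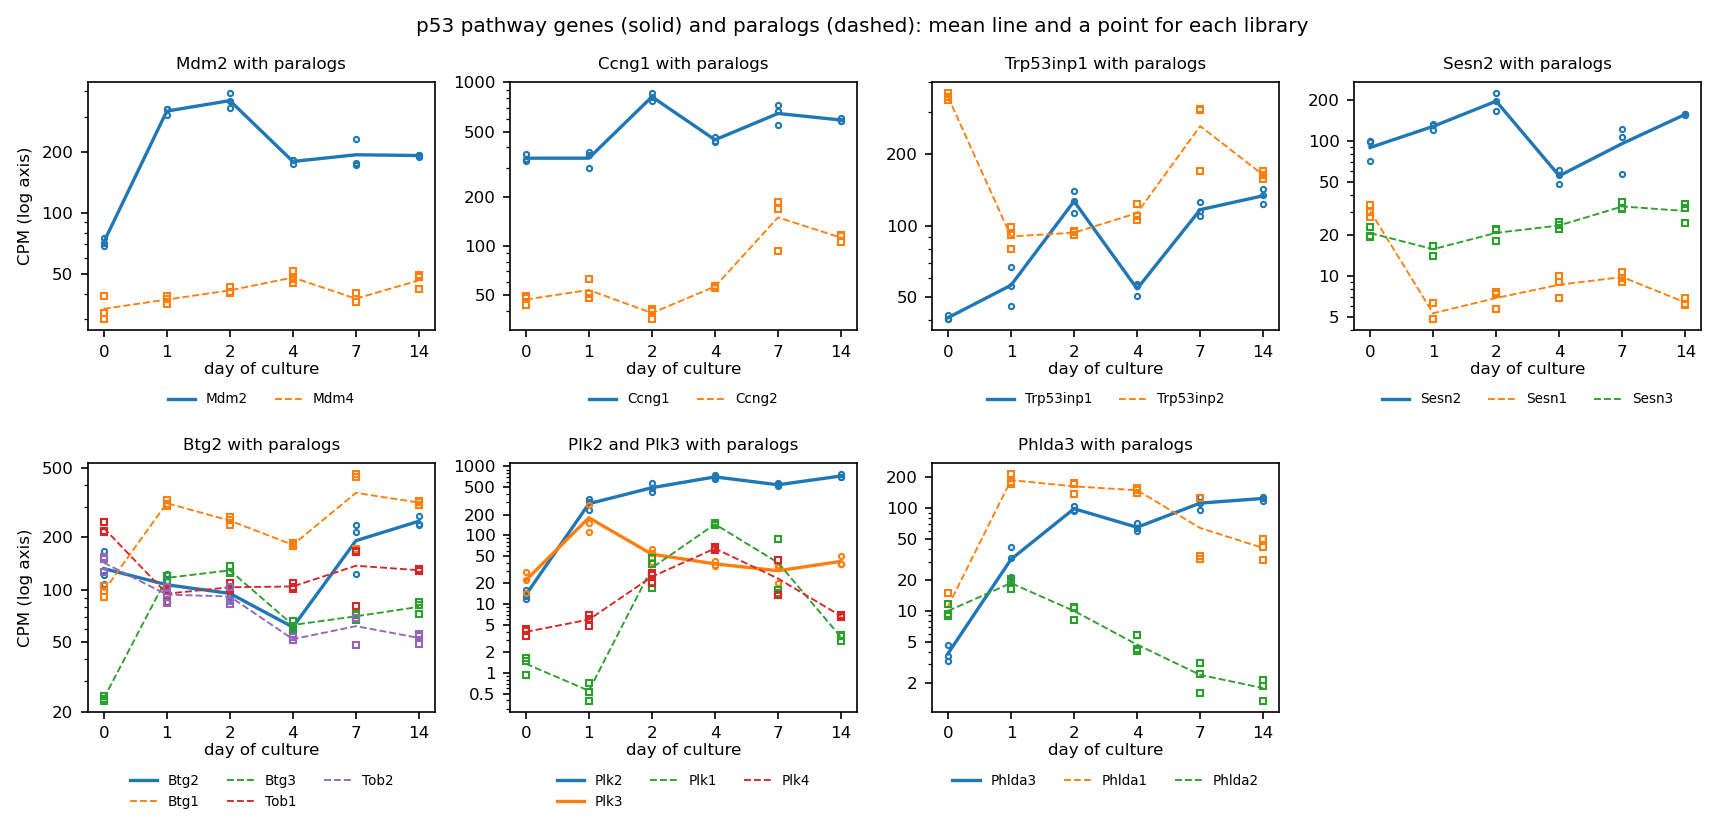
CPM (log axis, range set per panel) on each day for 8 p53 pathway genes (solid lines, circles) and their paralogs (dashed lines, squares); a point is 1 library and lines join the means of 3. Trp53inp2 and Sesn1 drop on day 1, and Plk1 and Plk4 are highest on day 4.

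Several of these genes also answer other signals. Gdf15 and Sesn2 are known targets of ATF4 and its partner CHOP, the factors of the integrated stress response. Of 12 genes of that response 11, 11, 9, 11 and 11 were higher than at isolation over days 1, 2, 4, 7 and 14. On those days 0, 1, 1, 0 and 0 were lower. Of all genes 33.1% to 38.9% were higher and 32.1% to 37.1% lower. Atf4 had 56.3 ± 4.43 CPM on day 0, 573 ± 4.01 on day 1, 219 ± 3.53 on day 4 and 256 ± 24.9 CPM on day 14. Ddit3, which encodes CHOP, had 8.95 ± 0.474, 60.1 ± 4.63, 10.5 ± 1.18 and 63.8 ± 3.11 CPM on those days. Between days 2 and 4 Ddit3 fell (log2 -1.85 ± 0.38, adjusted p = 0.001027, edgeR, BH), as Sesn2 did, while Gdf15 rose. Of the 12 genes 2 rose and 3 fell over that step (19.4% and 22.1% of all genes). Ddit3 was chosen after its values were seen. From day 7 to day 14, 9 of the 12 rose (5.07% of all genes). That count was 3 to 5 without any one day 14 library or without day 4 replicate B or C. It was 1 with only the libraries of days 7 and 14.

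Plk2, Plk3 and Btg2 belong as well to the immediate early class, which growth factors and tissue dissociation switch on within minutes to hours. Of 19 such genes, 8, 6, 6, 8 and 7 were higher than day 0 on days 1, 2, 4, 7 and 14. On those days 4, 6, 8, 8 and 8 were lower. Against day 0, 33.1% to 38.9% of all genes were higher and 32.1% to 37.1% lower. Neither the class nor all genes had a common direction. Fos went from 409 ± 225 on day 0 to 64.6 ± 31.9 CPM on day 1, and Myc 11.99 ± 3.45 and 419 ± 45.2 CPM (SD, n = 3). Fosl1, with 0 counts on day 0, had 668 ± 18.6 CPM on day 1. The part of ATF4 and of growth signals in the levels of these p53 targets was not tested.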

How the data were processed

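Estimated counts per gene and TPM per gene were deposited by the authors for 18 libraries. The submitters' processing notes list RSEM 1.3.3, STAR 2.7.8a, FastQC 0.11.8 and cutadapt 2.3, and the build GRCm38. Annotation release and strandedness: not given in the sources used here. The expected counts are whole numbers as deposited and were used unchanged. The TPM deposited by the authors hold no depth. Of 55426 entries, 5 reporter rows were left out.

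CPM used TMM-scaled library sizes, and log2 CPM a prior count of 2. After filterByExpr, 18754 genes entered edgeR's quasi-likelihood F test, fitted to 6 day means with all 18 libraries together, with BH adjustment over all genes. The standard error (SE) is the log2 fold change over the root of F. Positions come from GENCODE vM21 (GRCm38). Replicates of a day differed by more than sampling noise (chi-square at least 7.055 for each degree of freedom). Same-letter libraries of days 2 and 4 deviated together (correlations of 0.203 for A, 0.160 for B and 0.293 for C); in no other comparison were all 3 correlations above 0.1, so letters were not taken to pair those days. As alternatives, the fit was repeated with library sizes alone, DESeq2 size factors, no count filter, a replicate block or only the days compared, with the DESeq2 Wald test, with limma on log2 TPM (pseudocounts of 1 and 0.1, mean TPM at least 0.5, or unfiltered), and without each library. The test was also run on simulated counts of day 1 against day 0, with few genes changed, evenly up and down. In the data most genes were called in that comparison, so the simulation does not bear on the scaling. R 4.3.3, edgeR 4.0.16, limma 3.58.1 and DESeq2 1.42.0 were used.

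The genes, the 161 genes of the lists and the tests were chosen with earlier results of these data known. Named by rule were all 10 genes, Cdkn1a, the paralogs, per list and day against day 0 up to 3 called genes with the largest rise and fall, and per gene the 3 nearest profiles; only examples of the list genes are printed. Bax, Bbc3, Pmaip1, Atf4, Ddit3, Mki67 and Top2a fall outside that rule and were chosen after their values were seen. Ddit3 has a second identifier with almost no counts, which was not used.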

Additional observations from a re-analysis of the deposited data

How the results depend on the processing

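Of 90 changes (10 genes by 9 comparisons), 60 kept their direction and their side of the threshold in every alternative; of 2430 values, 2286 did, 69 lost a call, 43 gained one and 32 turned in direction. Precision is limited by 3 libraries per day and, for Phlda3, Gdf15 and Plk2, by low counts on day 0; estimated counts carry no molecular identifiers. The cause of the shifts below was not tested.

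Values that turned (log2) were all small. Ccng1 on day 1 against day 0 was -0.072 with DESeq2 size factors, -0.068 by the DESeq2 Wald test, -0.011 without a count filter and -0.0047 with the replicate block, and -0.064 to 0.10 without single libraries. Btg2 on day 1 was 0.061 in limma with a pseudocount of 1, filtered or not, and 0.062 with 0.1. On day 2 against day 0 Btg2 was 0.045 by library sizes alone and 0.13 in all 3 limma fits, and against day 1 it was 0.0535 by library sizes alone and 0.069 and 0.070 in limma with pseudocounts of 1 and 0.1. Mdm2 from day 7 to day 14 was 0.042 by library sizes alone, 0.13 in limma, and -0.088 to 0.13 without single libraries, and Trp53 over that step was 0.033 and 0.034 in limma and -0.22 to 0.12 without single libraries. Without single libraries, Sesn2 on day 7 against day 0 ran from -0.12 to 0.37, Gdf15 from day 1 to day 2 from -0.0535 to 0.27, and Mdm2 from day 4 to day 7 from -0.038 to 0.18.

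Counts over all genes moved in some fits, most often in limma on TPM, which changes the unit, the scaling and the test together. Those lower than day 0 on days 1, 2, 4, 7 and 14 numbered 6949, 6619, 6895, 6028 and 6026, against 4559, 3877, 3950, 3147 and 2891 in limma with a pseudocount of 1 and 4595, 3836, 3957, 3111 and 2840 with 0.1. Those higher were 7060 on day 7, against 10842 in unfiltered limma, and 7007 on day 14, against 10791, 10923 and 11966 in the limma fits. From day 1 to day 2, 3186 rose and 3283 fell, against 5492 and 2185 by library sizes alone, and 5288 and 1832, 5376 and 1775, and 5063 and 1930 in limma. From day 4 to day 7, 4122 rose and 2985 fell, against 1918 and 1691 with only those days. From day 7 to day 14, 950 rose, against 1554 by library sizes alone, 610 without a filter, 127 with only those days, and 1697 and 1745 in limma with a pseudocount of 1, filtered and unfiltered, and 444 to 1111 without single libraries. Over that step 1399 fell, against 92 with only those days, 621, 664 and 505 in limma, and 763 to 1784 without single libraries. The median of all genes moved up with library sizes alone, by 0.30, 0.51, 0.49, 0.50 and 0.56 (log2) for days 1, 2, 4, 7 and 14 relative to day 0, and by 0.21 from day 1 to day 2. The higher share of called genes then went from 47.2%, 52.4%, 50.9%, 53.9% and 53.8% to 58.3%, 67.3%, 64.9%, 70.3% and 71.9% (61.6%, 70.9%, 70.9%, 76.7% and 78.9% in limma), from 49.3% to 71.5% (74.3%) between days 1 and 2, and from 40.4% to 58.4% (73.2%) between days 7 and 14.

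Of the 10 genes, 7 were called from day 4 to day 7, with 4 to 7 without single libraries. From day 7 to day 14 the count of 1 became 3 by library sizes alone, by the Wald test and in the 3 limma fits, 2 without a filter, 0 with only those days, and 0 to 2 without single libraries. With the replicate block it was 2. Between days 2 and 4, where same-letter libraries deviated together, the replicate block changed no call of the 10 genes (9 with and without it). Over all days 8 of 45 same-letter pairs were above 0.1. Correlations of same-letter libraries ran from -0.17 to 0.42, and 12 of 18 libraries correlated best with their own letter, a hint from the data and not from the design.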
